A study of Mus musculus
Mus spretus with 18 samples.

Results

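The C57BL/6J allele was compared with that of SPRET/EiJ for exon inclusion within the same cells, in fibroblasts of an F1 hybrid that had received DMSO, the solvent of the splicing inhibitor used elsewhere in the study. SPRET/EiJ is an inbred strain of Mus spretus, a species that parted from the house mouse long ago, and C57BL/6J is the common inbred laboratory mouse. The fibroblasts were a cell line derived from hybrids of a C57BL/6J mother and a SPRET/EiJ father, and were kept in DMSO for 4 h before RNA was extracted from 2 control samples. Nothing says that these were separately derived, so the p-values of the fibroblast calls rest on the spread between these libraries, which may be technical. Those of the tissue calls rest on the tissue libraries, and those of the contrast on both. The measured items were skipped exon events, each made of 1 alternative exon and its flanking exons. An event entered when it lay on an autosome and had 20 or more junction reads on each allele in each library. This left 26332 events with 23310 distinct exons in 7724 genes, of 31074 events listed for these cells and of 81649 events that met the same rule in any of the 18 libraries of the series. The 7 tissues used for comparison were cerebral cortex, heart, kidney, lung, spleen and liver of F1 mice aged 8 weeks and embryonic stem cells (ESC) of 2 clones, with 2 libraries each and no treatment. The study set out to learn how sequence differences on an allele itself alter splicing, and a hybrid cell holds both alleles in 1 shared set of splicing factors.

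A skipped exon is joined to its neighbours in some transcripts and left out of others, and the choice rests on the splice sites, the branch point and short enhancer and silencer sequences read by RNA-binding proteins. A sequence difference in any of these can alter the choice on the allele that carries it. The share of transcripts that include the exon is called PSI (percent spliced in) and runs here from 0 to 1. It was computed from the reads over the inclusion junctions and over the skipping junction, each divided by the number of read positions that can show that form. ΔPSI is the PSI of C57BL/6J minus the PSI of SPRET/EiJ, so a positive value means more inclusion on C57BL/6J.

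Summed over all listed events, those of the X chromosome included, the C57BL/6J allele had 30863221 and 31043936 junction reads in the 2 libraries and the SPRET/EiJ allele had 27056558 and 27410826. Over the autosomal events alone, C57BL/6J held 51.4% and 51.3% of the allelic reads. A tested event had a median of 344 reads per allele and library, with quartiles of 148 and 812. A median of 93.2% of an event's reads carried a difference that assigned them to an allele. The allele labels were checked on imprinted genes. All 4 genes known to be expressed from the father with at least 100 reads had at most 1.31% of their reads on the first allele column, and 5 of 7 genes expressed from the mother had at least 97.4% there, whereas Tssc4 had 39.2% and Osbpl5 52.5%. Fibroblast markers were abundant, with Col1a1 at 1092 and 1039 TPM, a length-scaled measure of transcript abundance, and Vim at 4397 and 4424 TPM, and 9 of 10 such markers were above 1 TPM in both libraries. Fap, the exception, had 0.137 and 0.106 TPM. Of the epithelial, endothelial, leukocyte, muscle, neural and pluripotent markers, Cdh1, Cd68 and Map2 were above 1 TPM in both libraries, none of them above 8.86 TPM, and the leukocyte marker Ptprc was at 0.

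An allelic difference was called for 687 of the 26332 events, 2.61% of those tested, at a false discovery rate (FDR) under 0.05 and a |ΔPSI| of at least 0.1. The exact 95% binomial interval of this share, which covers counting of events only, ran from 2.42% to 2.81%. The calls fell on 657 exons in 532 genes, 6.89% of the genes tested. Inclusion was higher on C57BL/6J in 361 called events and higher on SPRET/EiJ in 326. Without the limit on size 1313 events passed the FDR. The threshold on size passed between Rara, the smallest call with a |ΔPSI| of 0.100, and 1810058I24Rik, which reached 0.0996 and was not called. Most tested exons hardly varied, as 22459 events had all 4 of their PSI values above 0.9 or all 4 below 0.1, which leaves no room for a |ΔPSI| of 0.1. Of the 3873 others 17.7% were called.

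The called differences ranged widely in size. Their median |ΔPSI| was 0.224, against 0.00685 over all tested events, and 384 were at least 0.2. A |ΔPSI| of 0.5 or more was seen in 76 events of 65 genes. In 172 events of 144 genes the form that made up most transcripts differed between the alleles. In 13 events of 9 genes the exon was above 0.9 on 1 allele and below 0.1 on the other. The sign was the same in both libraries for 685 of the 687 calls, and 588 of them in 459 genes reached 0.1 in each library. Of the 587 such events that could be compared with all reads, 560 had a PSI over both alleles within 0.1 of the PSI over all reads, including those that no difference assigned. The exons described by name below come from these 560 events.

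**Figure D1:**
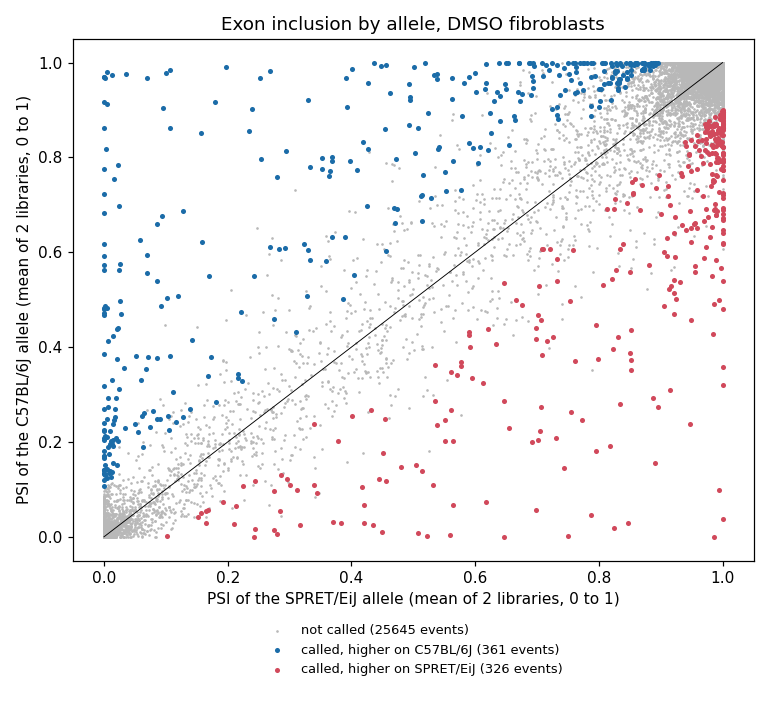
Each point is 1 of the 26332 skipped exon events, with PSI on the SPRET/EiJ allele on the horizontal axis and PSI on the C57BL/6J allele on the vertical axis, both as means of 2 libraries. Grey points were not called and crowd into the corners near 0 and 1, and the 361 blue and 326 red calls lie on both sides of the line of equal inclusion, many of them along the edges where 1 allele is near 0 or 1.

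The 24 genes with the largest difference in both libraries had a |ΔPSI| between 0.681 and 0.986, with more inclusion on C57BL/6J in 15 and on SPRET/EiJ in 9. The smaller of the differences in the 2 libraries was 0.659 for the last of them and 0.656 for the next gene in the order. Passing the FDR was a condition of being named, and the adjusted p-values were at most 0.000791 (Mutyh). The ranking also picked exons with the alleles far apart in both libraries, so that separation is no further support. Exon positions are given in mm10 (GRCm38), and every named exon lay within its RefSeq gene. Whether an exon is coding or untranslated was not analysed here. The values of a named exon are those of 1 event, with 1 pair of flanking exons. Some named exons were also tested with other flanking exons, and not all of those events were called. In Josd2, App, Tpm1, Tnc, Ecm1, Eif4enif1 and Ctage5, 1 of 2 tested events of the exon was called. In Crebrf 1 of 3 was called, and in Mff 2 of 3.

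The most complete switch was in Tor1aip1, which encodes an inner nuclear membrane protein that binds lamins. Its 56-bp exon on chromosome 1, from 156019968 to 156020023, had a PSI of 0 on C57BL/6J in both libraries, from 927 and 926 reads, and of 0.986 on SPRET/EiJ in both, from 100 reads each. The alleles did not overlap, and the fewer SPRET/EiJ reads meant that the PSI over all reads was 0.0907 and 0.0868. The reverse pattern was seen in Mrps17, a protein of the small subunit of the mitochondrial ribosome. Its exon on chromosome 5, from 129715684 to 129715763, was included at 0.969 and 0.990 on C57BL/6J and at 0.00829 and 0.00245 on SPRET/EiJ, with at least 534 reads behind each value. All 5 called Mrps17 events share the same exon start, differ in the exon end and had a ΔPSI between 0.960 and 0.975, so they are overlapping versions of 1 exon. Pkp4, an armadillo-repeat protein of cell junctions, included its 132-bp exon at 0.902 and 0.931 on C57BL/6J and had no inclusion read on SPRET/EiJ among 125 and 155 reads.

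Several of the 24 genes act at the centromere, in cell division or in DNA repair. Cenpa encodes the histone H3 variant that marks centromeres, and Hjurp encodes the chaperone that deposits it. The 54-bp Cenpa exon on chromosome 5, from 30668999 to 30669052, had a PSI of 0.0514 and 0.0220 on C57BL/6J and of 1 on SPRET/EiJ in both libraries, although the SPRET/EiJ values rested on 34 and 30 reads. The 93-bp Hjurp exon on chromosome 1, from 88269321 to 88269413, was included at 0.985 and 0.997 on C57BL/6J and at 0.245 and 0.148 on SPRET/EiJ. Neither event was measured in any of the 7 tissues, where it was not listed with the same flanking exons or had too few allelic reads. Which of these held was not separated. Cdc26, a subunit of the anaphase-promoting complex, had a 97-bp exon on chromosome 4, from 62404456 to 62404552, at 0.978 in both libraries on C57BL/6J and at 0.105 and 0.0967 on SPRET/EiJ. Mutyh, a DNA glycosylase that removes adenine paired with oxidised guanine, went the other way, with 0.134 and 0.178 on C57BL/6J and 0.870 and 0.911 on SPRET/EiJ, from 25 to 59 reads per value.

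The next 4 genes have known roles in innate immunity, for which no list was counted. Apobec3 encodes a cytidine deaminase that restricts retroviruses. Its 99-bp exon on chromosome 15, from 79899020 to 79899118, had a PSI of 0.00394 and 0 on C57BL/6J and of 0.772 and 0.729 on SPRET/EiJ, with at least 460 reads per value. Ifi27, an interferon-induced gene, included its 135-bp exon at 0.984 and 0.969 on C57BL/6J and at 0.0700 and 0 on SPRET/EiJ, where only 24 and 25 of its reads came from. In Tlr3, the endosomal receptor for double-stranded RNA, the 195-bp exon on chromosome 8, from 45409796 to 45409990, was at 1 and 0.933 on C57BL/6J and at 0.273 and 0.233 on SPRET/EiJ. In Trim26, a ubiquitin ligase, the 76-bp exon was at 0.909 and 0.793 on C57BL/6J and at 0.180 and 0.134 on SPRET/EiJ. In none of the 4 genes did the libraries of the alleles overlap, a trait that the ranking by the smaller library difference favours.

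The following 6 genes act in metabolism, lysosomes and protein turnover. Atg7, the activating enzyme of the autophagy conjugation systems, had a 53-bp exon on chromosome 6, from 114672791 to 114672843, at 0.0115 and 0.0244 on C57BL/6J and at 0.778 and 0.872 on SPRET/EiJ. Fut8 adds the core fucose to N-glycans, and its 93-bp exon was at 0.732 and 0.779 on C57BL/6J and at 0.0141 and 0.0190 on SPRET/EiJ. Pld3, a lysosomal exonuclease of the phospholipase D family, had a 75-bp exon on chromosome 7, from 27545188 to 27545262, at 0.901 and 0.908 on C57BL/6J and at 0.112 and 0.0800 on SPRET/EiJ. Blvra, which reduces biliverdin to bilirubin, showed more spread than the others, with 0.0565 and 0 on C57BL/6J against 0.720 and 0.973 on SPRET/EiJ. Josd2, a deubiquitinase, included its 112-bp exon at 0.327 and 0.311 on C57BL/6J and in every SPRET/EiJ read of this event, 51 and 67 of them. Another event of the same Josd2 exon was tested and not called. The exon of Osbpl3, an oxysterol-binding protein, was at 0.938 and 0.896 against 0.174 and 0.185.

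Of the other large differences, the exons of the zinc finger gene Zscan21, of Tuft1, of the phosphatase regulator Ppp1r26, of Tmem80 and of the long non-coding RNA C030037D09Rik were included more on C57BL/6J, with a ΔPSI of 0.898, 0.876, 0.861, 0.776 and 0.713. The exons of Rcbtb1 and Gpank1 were included more on SPRET/EiJ, with a ΔPSI of -0.742 and -0.710. Ppp1r26 had 0.944 and 0.778 on C57BL/6J from 35 and 32 reads, and 0 on SPRET/EiJ in both. Reads of the alleles were unequal in several of the 24 genes, as in 9 of them more than 75% or less than 25% of the event's reads were on C57BL/6J. Among all calls this held for 13.2% of events and for 31.6% of those with a |ΔPSI| of 0.5 or more, against 5.37% of all tested events. Its part in the differences was not tested.

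**Figure D2:**
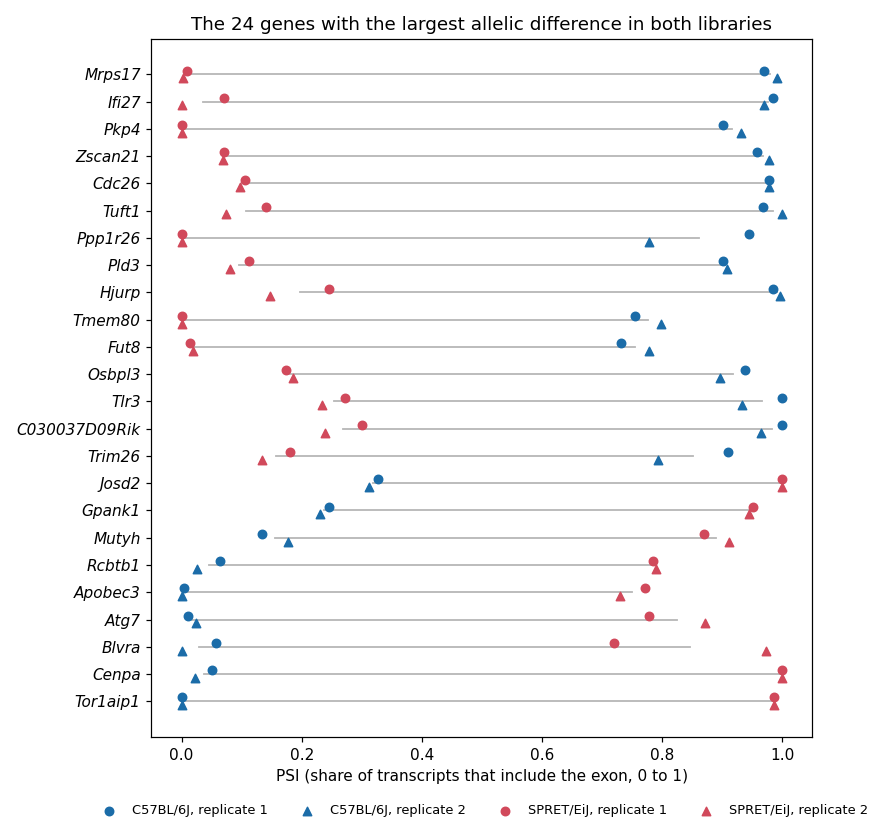
PSI of the named exon of each of the 24 genes with the largest allelic difference, ordered by ΔPSI, with 1 point per allele and library (blue C57BL/6J, red SPRET/EiJ, circles replicate 1, triangles replicate 2) and a grey line between the allele means. The alleles are apart in both libraries for every gene, which the ranking by the smaller library difference selects. The widest gaps between libraries are those of Blvra on SPRET/EiJ (0.720 and 0.973) and Ppp1r26 on C57BL/6J (0.944 and 0.778).

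Calls were counted in 10 lists of genes with known roles, and 6.89% of all tested genes had a call. In the list of the extracellular matrix, the collagens and glycoproteins that fibroblasts secrete, 6 of 44 tested genes (13.6%) had a call, with 10 events higher on C57BL/6J and 3 on SPRET/EiJ. Of these events 5 were of Col6a3 and 4 of Tnc, all higher on C57BL/6J. The called event of Postn was also higher on C57BL/6J, and those of Ecm1, Ltbp3 and Ltbp1 were higher on SPRET/EiJ. The median |ΔPSI| of its 334 tested events was 0.000639, so most matrix exons did not differ. In cell adhesion and receptors 5 of 45 genes (11.1%) were called, in ubiquitin, proteasome and autophagy 9 of 86 (10.5%), in actin and microtubule cytoskeleton 6 of 73 (8.22%), in vesicle traffic and endocytosis 7 of 89 (7.87%) and in splicing and RNA binding 8 of 107 (7.48%). The lowest shares were those of chromatin and transcription with 6 of 98 (6.12%), cell cycle, DNA repair and apoptosis with 6 of 109 (5.50%), mitochondria and metabolism with 5 of 129 (3.88%) and kinases, phosphatases and small GTPases with 3 of 82 (3.66%). A gene with more tested events has more chances of a call. By event 687 of all 26332 (2.61%) were called. The count was 13 of 334 for matrix, 6 of 246 for adhesion, 14 of 373 for protein turnover and 7 of 390 for cytoskeleton. It was 7 of 455 for vesicle traffic, 8 of 473 for splicing and 8 of 451 for chromatin. For cell cycle it was 7 of 475, for metabolism 9 of 444 and for kinases 4 of 390. Neither kind of share was compared by a test.

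Among the members of the matrix and adhesion lists, Col6a3, a chain of the type VI collagen of connective tissue, had 5 called events on 4 exons, each with more inclusion on C57BL/6J. Its 603-bp exon on chromosome 1, from 90821802 to 90822404, was at 0.957 and 0.845 on C57BL/6J and at 0.144 and 0.333 on SPRET/EiJ. Tnc, the matrix glycoprotein tenascin C, had 4 called events, again all higher on C57BL/6J, and its 273-bp exon from 63984460 to 63984732 on chromosome 4 was at 0.701 and 0.896 against 0.347 and 0.356. Ecm1 went the other way, at 0.825 and 0.838 against 1 and 0.998. The 54-bp exon of App, the amyloid precursor protein, was at 0.394 and 0.407 on C57BL/6J and at 0.598 and 0.587 on SPRET/EiJ, each from at least 11088 reads, and the libraries lay much closer together than the alleles. The 32-bp exon of Cd47, the surface protein that holds off phagocytes, was at 0.972 and 0.937 against 0.464 and 0.522. Ctnnd1, the catenin that binds cadherins, had an 87-bp exon at 0.0113 and 0.0181 against 0.222 and 0.329.

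In the cytoskeleton list the 126-bp exon of Tpm1, a tropomyosin that lies along actin filaments, had the deepest reads of all named exons, at least 11516 per value. It was included at 0.816 and 0.815 on C57BL/6J and at 0.621 in both libraries on SPRET/EiJ. Enah, which extends actin filaments, had an 843-bp exon with a ΔPSI of -0.303 and Ktn1, the membrane anchor of kinesin, a 72-bp exon with a ΔPSI of 0.293. The shortest named exon was the 9-bp exon of the kinase Map4k4 on chromosome 1, from 40008331 to 40008339. Its PSI was 0.809 and 0.820 on C57BL/6J and 0.289 and 0.301 on SPRET/EiJ. The other list members of this kind were the exchange factor Arhgef11 (ΔPSI 0.149), and in vesicle traffic the receptor Lrp8 (0.264), the coat scaffold Sec16a (-0.257) and Arfgap2 (0.194).

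Allelic exons were also called in genes of RNA-binding proteins and chromatin regulators. Eif4enif1, which carries the cap-binding factor eIF4E into the nucleus, had a 72-bp exon at 0.589 and 0.551 on C57BL/6J and at 0.963 and 0.949 on SPRET/EiJ. The 1242-bp exon of Snrpa1, a protein of the U2 snRNP, was in every read of C57BL/6J and at 0.872 and 0.815 on SPRET/EiJ. Ptbp3, a polypyrimidine tract-binding protein, differed by -0.110. The ΔPSI was 0.275 in Hmga1, 0.246 in Atf2 and -0.188 in the deacetylase Hdac7. In the protein turnover list it was 0.275 in the SUMO protease Senp6 and 0.167 in Uimc1, in the cell cycle list 0.376 in Cdk5rap2 and 0.237 in the DNA polymerase Polm, and in the metabolism list -0.353 in Lpin1, which makes diacylglycerol, and -0.118 in Ndufv3 of respiratory complex I. Hnrnpc and Hnrnpa1 of the RNA-binding list and Ube2f of the turnover list were called too but stood more than 0.1 away from the PSI over all reads. Reads of Rps19, Hmga1, the Akr1c and the zinc finger genes may be shared with near-identical copies, so values of such genes are less certain.

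Most genes had a single called event, 431 of 532, while 65 had 2 and 36 had 3 or more. The gene with the most calls, named for that count after its values were seen, was Abi3bp, a matrix protein with many alternative exons. Of its 41 tested events 7 were called, on 6 exons, with 3 events higher on C57BL/6J. Their ΔPSI ran from -0.492 to 0.514, so called events of 1 gene differed in opposite directions. Whether these exons are neighbours or share junction reads was not examined. Cenpa had 3 calls with a ΔPSI from -0.963 to 0.617.

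Called exons were set beside the other events in length, introns and read depth, of which depth enters the fit. The median exon length was 109 bp for calls and 108 bp for the 3186 events that were not called and had a PSI away from 0 and 1. The length was a multiple of 3, which keeps the reading frame of a coding exon, in 49.2% of calls, in 46.1% of those 3186 events and in 42.4% of all tested events. Exons of 30 bp or less made up 2.18% of calls and 2.89% of the others. The median intron before the exon was 1738 bp in calls and 2322.5 bp in the others, and the median intron after it 1943 bp and 2445.5 bp. Calls had a median of 991 reads and the others 469, and a deeper event reaches the threshold at a smaller difference. None of these was tested.

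The question of which fibroblast differences recur was put to each tissue with the same model. Tor1aip1, Mrps17, Pkp4, Zscan21 and Cdc26 had a ΔPSI of 0.812 or more in size in each of the 7 tissues, with the sign they had in fibroblasts. An event counted as measured in a tissue only if it was listed there with the same exon and flanking exon coordinates and had enough allelic reads. Of the 687 calls 643 were measured in at least 1 tissue, and 320 of these, in 269 genes, were called there in the same direction. With the library as a block in both fits, since both alleles were read from the same library, 481 of 736 recurred, while the tissues then called from 1.19% (ESC) to 3.93% (heart) of all their events. A single event was called in the opposite direction in a tissue. Among 588 calls measured in 2 or more tissues the sign was the same in every measured tissue for 477 (81.1%). Neither this share nor that of calls recurring in at least 1 tissue is set beside the same share over all events. How far they are particular to the calls is therefore not shown.

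By tissue the share of fibroblast calls that recurred was 38.8% in lung (205 of 529 measured), 36.6% in kidney (192 of 524), 35.7% in cortex (166 of 465), 32.1% in spleen (164 of 511), 27.0% in heart (129 of 477) and 20.9% in liver (77 of 369). The tissues themselves called 1.87% of their events in lung, 1.87% in kidney, 2.12% in cortex, 1.76% in spleen, 1.92% in heart and 1.19% in liver. Among events that were not called in fibroblasts the 6 organs called 0.436% (liver) to 1.66% (cortex), and ESC called 0%. Read from the other side, the recurring events were 70.9% of the 289 lung calls measured in fibroblasts and 45.9% of the 362 cortex calls. ESC called only 7 of 31421 events, 0.0223%, and all 7 recurred, of 512 fibroblast calls measured there. The 2 ESC clones differed more than the libraries of any other group, with a median dispersion of 4.93 times binomial noise against 1.72 in fibroblasts and 1.27 to 2.52 in the other tissues. With the library as a block ESC called 375 events and 164 of 581 fibroblast calls recurred there, against 209 of 542 in heart, 311 of 598 in lung and 147 of 402 in liver. The tissues called more of all events in that fit too, with 3.93% in heart, 3.81% in lung, 3.01% in spleen, 3.01% in liver, 2.85% in cortex, 2.73% in kidney and 1.19% in ESC. Without any test, 44.1% (ESC) to 56.5% (lung) of the fibroblast calls had the same sign and at least 0.1 in both libraries of a tissue. The same share over events not called in fibroblasts is not given here.

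**Figure D3:**
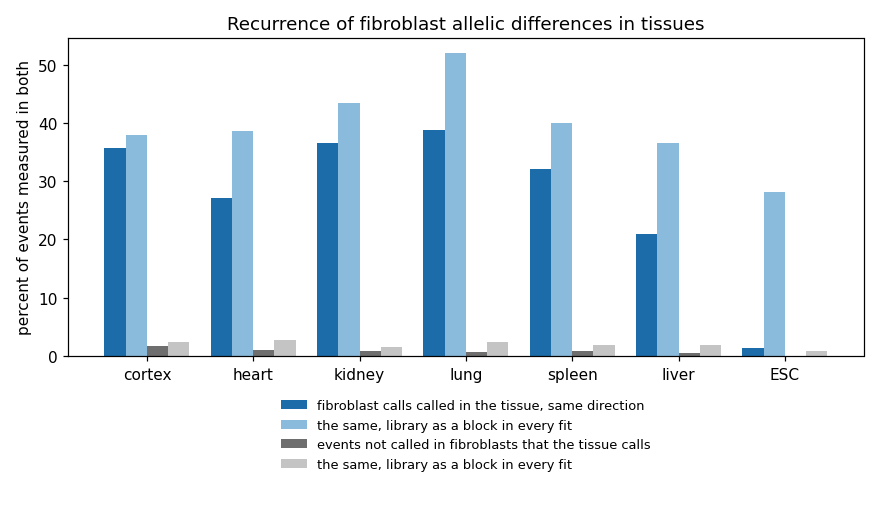
Bars give the percent of events measured in both fibroblasts and a tissue: fibroblast calls that the tissue calls in the same direction (dark blue), the same with the library as a block in every fit (light blue), events not called in fibroblasts that the tissue calls in either direction (dark grey), and these with the block (light grey). Recurrence is 20.9% to 38.8% in the 6 organs and 1.37% in ESC without the block, and 28.2% to 52.0% over the 7 tissues with it, and the grey bars reach 1.66% without the block and 2.69% with it.

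Recurrence was also counted by size, without a test. Of the fibroblast calls with a |ΔPSI| of 0.5 or more, 42 of 49 measured in lung recurred there, 42 of 47 in kidney, 40 of 47 in heart, 37 of 46 in spleen, 36 of 46 in cortex, 22 of 30 in liver and 7 of 47 in ESC. The median fibroblast |ΔPSI| was 0.274 for calls that recurred in some tissue and 0.184 for those that recurred in none. A larger difference is also more easily called. Of 498 calls measured in 4 or more tissues 18, in 12 genes, were called in every one of them, and with the block 91 of 565 were. All 7 tissues called 6 of the 281 events measured in all of them, the 5 Mrps17 events and the Pkp4 exon, and with the block 50 events.

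Of the 24 genes with the largest difference, 20 had their exon measured in at least 1 tissue, all 20 recurred in some tissue, and 19 had the same sign in every tissue measured. The exception was C030037D09Rik, at 0.378 in cortex, 0.251 in heart and -0.0803 in kidney. Apobec3 was called in all 5 tissues in which it was measured, with a ΔPSI from -0.786 to -0.857, and Tmem80 in all 5 of its own. The ΔPSI of Tuft1 and Blvra was smaller in size in the tissues, but the contrast of fibroblasts against the tissue mean, described below, called neither exon. Tuft1 had 0.876 in fibroblasts and 0.176 to 0.220 in 4 tissues, and Blvra -0.818 in fibroblasts and -0.0430 to -0.404 in 7.

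Beyond these 24, exons of 8 genes that had enough reads in at least 4 tissues were called in every one of them. Cobll1, an actin-binding protein, had 0.573 in fibroblasts and 0.341 to 0.811 in 6 tissues. Mff, the factor that draws the fission machinery to mitochondria, lacked its 75-bp exon on C57BL/6J in both fibroblast libraries and had 0.642 and 0.652 on SPRET/EiJ. The Mff difference was -0.910 in heart and -0.849 in lung, and -0.272 in kidney and -0.186 in cortex. Cd47 was called in 6 tissues with 0.184 to 0.523, and Zfp672 in 5 with 0.390 to 0.638. Ciz1, a nuclear matrix protein, had 0.408 in fibroblasts and smaller values, 0.153 to 0.311, in 5 tissues. Hyi had -0.439 in fibroblasts and -0.658 to -0.755 in 4 tissues, Iqce 0.224 and 0.155 to 0.626 in 5, and the aldo-keto reductase Akr1c13 0.239 and 0.265 to 0.340 in 4.

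**Figure D4:**
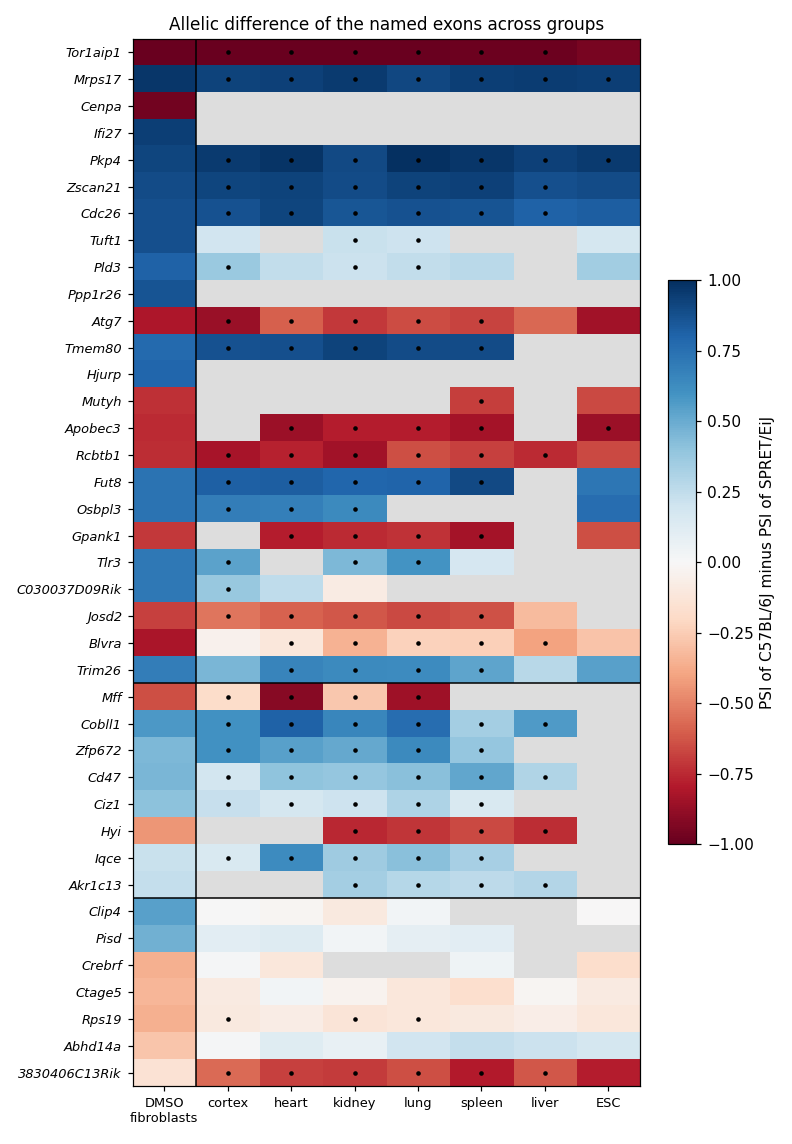
Colour gives ΔPSI (C57BL/6J minus SPRET/EiJ) of each named exon in DMSO fibroblasts (first column) and in 7 tissues, blue for more inclusion on C57BL/6J and red for more on SPRET/EiJ. Grey marks tissues where the event was not listed with the same flanking exons or had too few reads. A dot marks a call in the tissue in the direction of fibroblasts, and lines part the 24 largest differences, the 8 genes called in every one of at least 4 measured tissues and the 7 further genes whose fibroblast difference departed from the tissue mean; the rows of Tor1aip1, Mrps17 and Pkp4 are almost even in colour, and the Clip4 row is strongly coloured only in fibroblasts.

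Whether the allelic difference of fibroblasts departed from the mean of the tissues was tested in 1 model over all groups. It covered 17184 events measured in at least 2 tissues. The test was on log odds of inclusion (the log of included over skipped reads), as fibroblasts against the unweighted tissue mean. A call also needed a difference of at least 0.1 between the ΔPSI values. The adjusted p-values below belong to the log odds, and a gap in ΔPSI need not match 1 in log odds. The contrast was called for 16 events (0.0931%), 11 of which were fibroblast calls. With the library as a block it was called for 32, and without ESC for 26. The fibroblast reads enter both the contrast and the fibroblast calls, so the count of 11 among the 588 fibroblast calls tested carries no further weight. Over all 16 events the difference was larger in size in fibroblasts for 9 and larger in the mean of the tissues for 7, and the 5 events that were no fibroblast call were all of the second kind.

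Pld3 had a ΔPSI of 0.809 in fibroblasts and of 0.216 to 0.370 in 6 tissues, with a mean of 0.281, and the contrast had an adjusted p of 4.15e-05. Clip4, a protein with microtubule-binding CAP-Gly domains, included its 141-bp exon on chromosome 17, from 71824690 to 71824830, at 0.996 in both libraries on C57BL/6J and at 0.392 and 0.520 on SPRET/EiJ. In 5 tissues its ΔPSI lay between -0.0955 and 0.0260 (adjusted p of the contrast 0.000819). Only 36 and 31 Clip4 reads came from SPRET/EiJ, against 910 and 883 from C57BL/6J. The C57BL/6J share of the fibroblast reads was also high for the exons of Rps19 (90.2%), Pld3 (86.1%) and Abhd14a (80.7%). Its part in the contrast was not tested. Pisd, the mitochondrial enzyme that makes phosphatidylethanolamine, had 0.478 in fibroblasts and a tissue mean of 0.0906 (adjusted p 0.0246), again from 38 and 57 SPRET/EiJ reads. In 3830406C13Rik the tissues differed more between alleles than the fibroblasts, with -0.148 in fibroblasts and -0.563 to -0.795 in the 7 tissues (adjusted p 0.00253).

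Abhd14a had opposite signs, at -0.278 in fibroblasts and at 0.00796 to 0.236 in the 7 tissues (adjusted p 0.0246), although no tissue called it and the adjusted p was 0.0687 with a minimum of 50 reads. A further 3 genes had more inclusion on SPRET/EiJ in fibroblasts and a smaller difference in the tissue mean. Crebrf, with a 1090-bp exon, had -0.354 against -0.0599 (adjusted p 0.0246), Ctage5, which helps to export cargo from the endoplasmic reticulum, -0.332 against -0.0712 (0.0302) and the ribosomal protein gene Rps19 -0.354 against -0.0983 (0.0323), although 3 of the 7 tissues called Rps19 in the same direction. The ΔPSI of the Tuft1, Blvra and C030037D09Rik exons differed from the tissue mean by 0.678, -0.582 and 0.530. None was called, with adjusted p-values of the contrast of 0.994, 0.568 and 0.0806. With the library as a block C030037D09Rik was called (adjusted p 0.0211), as it was without ESC (0.0257).

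**Figure D5:**
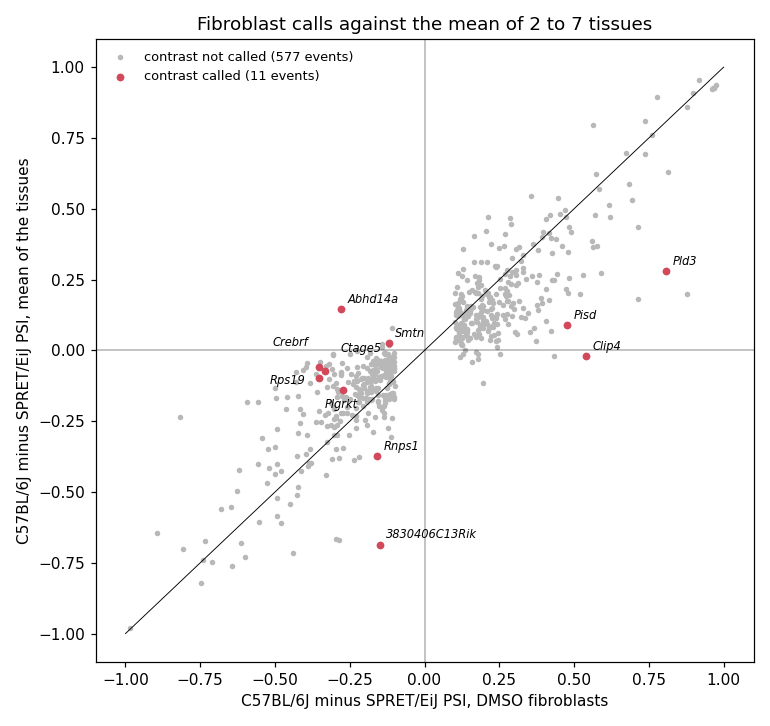
Each of the 588 fibroblast calls measured in 2 or more tissues is a point, with ΔPSI in DMSO fibroblasts on the horizontal axis and the mean ΔPSI of the measured tissues on the vertical axis. Most points lie near the line of equal values or between it and 0, and the 11 red, labelled points passed the contrast, with Pld3, Pisd and Clip4 to the right of the line and 3830406C13Rik far below it.

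Pladienolide B, which binds the SF3B complex of the U2 snRNP, was applied at 0.1 μM for 4 h to the same line. Of the 687 calls 440 had enough allelic reads after it. The mean ΔPSI had the sign it had in DMSO in 427 of these, and 288 had that sign and at least 0.1 in each treated library. The same shares over events that were not called are not given here. Of the 37 named exons measured there, 31 had the sign of DMSO in each treated library, and in the other 6 (Col6a3, Ptbp3, Atf2, Senp6, Polm and Ndufv3) the treated libraries had opposite signs.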

How the data were processed

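Stranded mRNA libraries were made from TRIzol-extracted RNA. The authors aligned reads with HISAT2 2.0.1 (a version from the submitters' processing notes) to mm10 and to a version of it carrying the SPRET/EiJ variants, kept for the allelic tables only reads assigned to 1 genome, and ran rMATS with default settings. The deposited junction read counts per allele and replicate are not normalized, and the deposited effective form lengths, a score in read positions, were used to recompute PSI. Gene TPM was calculated by the authors from featureCounts and was used for markers and features only. Their own p-values, FDR and inclusion level differences were not used, nor was the retained intron table.

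Each event was fitted by a quasi-binomial model of inclusion against skipping reads, with the allele as its term and the 2 libraries as replicates. The dispersion was moderated across events with limma 3.58.1 (R 4.3.3), with a trend on depth, a prior from the 3549 events with at least 5 fitted reads of each form, and a floor of binomial noise. Benjamini-Hochberg adjustment covered all 26332 events. Tissues were fitted alike. The contrast set the allelic log odds of fibroblasts against their unweighted mean over the tissues, fitted over the groups with enough reads. With 2 against 2 libraries an exact permutation test cannot go below a p of 0.333, so each p depends on spread shared across events. Counts were read with Python 3.11.15, numpy 2.4.6, scipy 1.17.1 and pandas 2.3.3.

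Exons were named if called, at least 0.1 with the same sign in each library, and within 0.1 of the PSI over all reads. They were ranked by the smaller of the 2 library differences with 1 event per gene. The first 24 genes were taken, up to 8 further genes called in every one of at least 4 measured tissues, up to 8 genes by size of the contrast, and up to 3 per functional list, which gave 64 genes. Members, lists and the form of the model were chosen with earlier results of these data known.

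Both alleles were read from the same library, which pairs them by design. Deviations of the alleles within a library correlated at r = 0.111 over 3873 events, and the fit with the library as a block is an alternative. The total junction reads per event differed between the libraries of an allele beyond counting noise (chi-square per degree of freedom 6.06 and 5.78). This covers read totals and not inclusion, and it cannot show whether the controls were separate cultures. The libraries were counted as 2 samples. The models were tested on simulated data after they had been fitted to the real data. The allelic model recovered 40% of changes of 0.15 in the share of inclusion reads, not in PSI, and 70% of changes of 0.3. This was among 26332 events, with 0 of 110 calls false. The contrast recovered 24% and 51% among 17184 events, with 0 of 75 calls false. The simulated spread followed the fibroblast trend on depth in every group, with none of its own per event. In the real data the median dispersion was 1.72 in fibroblasts and 4.93 in ESC, so recovery and false calls there may differ. Intervals cover counting error only.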

Additional observations from a re-analysis of the deposited data

Results flagged for a closer look

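The allelic difference departed between DMSO fibroblasts and the mean of the tissues, by the contrast in the model over all groups, in 8 of the exons described by name. The difference of ΔPSI (fibroblasts minus tissues) was 0.527 in Pld3, 0.559 in Clip4, 0.537 in 3830406C13Rik, -0.424 in Abhd14a, 0.387 in Pisd, -0.294 in Crebrf, -0.261 in Ctage5 and -0.256 in Rps19. With a minimum of 50 reads on each allele, Clip4 and Pisd could not be tested and Abhd14a had an adjusted p of 0.0687, while the other 5 were called.

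The X chromosome was left out of the events tested. Over its 682 listed events, C57BL/6J held 2274123 and 2191689 reads in the 2 DMSO libraries and SPRET/EiJ 15888 and 15097, so that 99.3% of the reads were on C57BL/6J in both. In the tissue libraries this share was 25.7% to 53.5%. Xist, the RNA that coats the inactive X chromosome, was at 57.3 and 56.0 TPM in these fibroblasts, and the Y-linked genes Ddx3y, Eif2s3y, Kdm5d and Uty were at 0 in both libraries.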

How the results depend on the processing

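The count of 687 allelic calls lay between 592 (1 event per exon) and 951 (without events near 0 or 1, so that fewer events were adjusted for) under the other settings, with 51.5% to 54.5% of calls higher on C57BL/6J, except that a limit of 0.2 on |ΔPSI| left 384, of which 207 were higher on C57BL/6J. The library as a replicate block gave 789 calls, among them all 687. In each library alone, 629 to 646 calls kept their sign and a size of 0.1, with 336 to 336 of them higher on C57BL/6J. These are values with no test. The 320 recurring events became 481 with the replicate block and 500 when the same direction and 0.1 in each tissue replicate were asked for in place of a call, and lay between 262 and 320 under the other settings. The 16 contrast calls became 32 with the replicate block, 26 without ESC and 10 with a minimum of 50 reads, and the cause was not tested. All 64 named exons kept their call with the replicate block, with no depth trend and with limma on log2 odds. Their ΔPSI is the same value in each of these fits. Their sign without either replicate was fixed by the naming rule, which asked for the same sign in each library. Limma on log2 odds gave 859 calls, 661 of them shared with the 687. This setting and recurrence without ESC were chosen after seeing the data. The planned edgeR and DESeq2 alternatives were not run, since the tables hold the replicate counts of a cell together and are not gene counts. Shallow alleles limit single values, the lowest being 24 reads (Ifi27), and small differences can be called only in deep events.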

Other observations

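Some called exons stood more than 0.1 away from the PSI over all reads and were therefore not described above. These were named after their values were seen. The exon of Hnrnpc, an RNA-binding protein of pre-mRNA, had a mean PSI of 0.180 on C57BL/6J and of 0.795 on SPRET/EiJ, while all reads gave 0.690 and 0.686 in the 2 libraries. Syncrip, a further RNA-binding protein, had 0.144 and 0.744 on the alleles and 0.828 and 0.829 over all reads, which lies outside the allelic range. In Csf1, the growth factor of macrophages, the alleles had 0.487 and 0.00184 and all reads 0.0308 and 0.0311. Mcfd2, a cargo receptor partner of the secretory pathway, had 0.0993 and 0.993 on the alleles and 0.533 and 0.538 over all reads. Over all 687 calls, 686 had a PSI over all reads, and in 667 it lay between the allelic means.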
